A study of Mus musculus with 6 samples.

Results

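The AP-1 genes of mouse were followed in cells sorted from muscle after a bout of electrically driven contractions. The 8 genes encode the Fos proteins (Fos, Fosb, Fosl1 and Fosl2), the Jun proteins (Jun, Junb and Jund) and the related stress factor Atf3. They were found by symbol, 1 row each, among 53715 genes in the deposited count table, and all 8 were among the 26559 genes that passed the filter on low counts. Stimulated mice had 40 contractions of the crural muscles, 20 eccentric and 20 concentric, within about 10 minutes, and tissue was taken 3 hours later. Sham mice were handled as unstimulated controls. Both groups were wild-type (WT) C57BL/6J males aged 14 weeks, with 3 animals and 3 libraries per group, and RNA came from cells of the gastrocnemius-soleus complex gated as CD146+CD45-CD31- pericytes, the mural cells that wrap capillaries.

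AP-1 is a dimer of leucine zipper proteins that binds short DNA elements in promoters and enhancers. Fos proteins need a Jun partner to bind, Jun proteins can also pair with each other, and Atf3 joins Jun proteins at related elements. Fos, Fosb, Jun, Junb and Atf3 are immediate early genes: their transcription starts within minutes of growth factor, stress or mechanical signals, through MAP kinases, serum response factor and CREB, and their messengers decay quickly. The same genes are also known to be switched on by enzymatic dissociation of tissue before a cell sort.

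The material was checked against its label before any comparison. Mcam, which encodes CD146, had 24.3, 30.8 and 54.1 CPM (counts scaled to library size with TMM factors) in stimulated and 39.1, 105 and 64 CPM in sham libraries. Ptprc, which encodes the leukocyte antigen CD45, had 1027, 1035 and 989 CPM in stimulated against 814, 194 and 863 CPM in sham libraries. Pecam1, which encodes the endothelial antigen CD31, had 384, 429 and 577 CPM in stimulated against 524, 1277 and 751 CPM in sham libraries. RNA of both antigens that the gate excluded was thus present in every library. Both had a higher CPM than Mcam in each library, although CPM is not per length. Pdgfrb, a further pericyte marker, had 12.5, 23.2 and 43.7 CPM in stimulated and 24.8, 59.8 and 37.2 CPM in sham libraries. The AP-1 levels below are therefore those of mixed material. Sham replicate 2 stood apart, with a summed level of 315 CPM over 15 lymphocyte markers, where the other 5 libraries had 1809 to 2855 CPM, and 11969 CPM over 18 endothelial markers, where the others had 2982 to 7042 CPM. The libraries held 18204991, 21004095 and 23709220 estimated reads after stimulation and 20292341, 17520338 and 21825118 in sham.

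At 3 hours after the contractions, 7 of the 8 AP-1 genes had a lower mean level in stimulated than in sham libraries, and Fosl1 alone had a higher one. Fos, Fosb and Atf3 were lower in every stimulated library than in every sham library, with fold changes of 0.572, 0.444 and 0.462. None of the 8 passed edgeR's quasi-likelihood test after Benjamini-Hochberg adjustment over all genes, and 0 of 26559 genes did so (0% called). The smallest adjusted p of any gene was 0.0504, and 1872 genes had an unadjusted p under 0.05. In the same counts DESeq2 called 153 genes lower (0.771% of the 19835 genes it gave an adjusted p) and 74 higher (0.373%), and limma voom called 0. Each library came from a separate animal, going by the stated group sizes.

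Fos encodes the founding partner of Jun in AP-1 (ENSMUSG00000021250.13, GRCm38 chr12:85473890-85477273, plus strand, 4 exons in its main transcript). It had 331, 502 and 385 CPM in stimulated libraries 1, 2 and 3, against 620, 552 and 958 CPM in sham libraries 1, 2 and 3. The groups did not overlap, and sham replicate 3 was the highest of the 6. The mean was 406 ± 87.5 CPM in stimulated and 710 ± 218 CPM in sham libraries (SD, n = 3 each), a log2 fold change of -0.81 (SE 0.32) with an edgeR adjusted p of 0.668. Without sham replicate 3 the log2 fold change was -0.52, and without sham replicate 2 it was -0.96.

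Fosb encodes a Fos protein whose transcripts are spliced into a full-length and a shortened protein (ENSMUSG00000003545.3, GRCm38 chr7:19302696-19310051, minus strand, 4 exons). Its levels were 203, 311 and 244 CPM in stimulated and 581, 358 and 769 CPM in sham libraries. Here too the groups stayed apart, and stimulated replicate 1 was the lowest and sham replicate 3 the highest. Stimulated libraries averaged 253 ± 54.2 CPM and sham libraries 569 ± 206 CPM (SD, n = 3 each), the lowest fold of the 8 genes, at a log2 fold change of -1.17 (SE 0.34) and an edgeR adjusted p of 0.543. The log2 fold change was -0.88 without sham replicate 3 and -1.41 without sham replicate 2.

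Atf3 encodes a factor of the ATF/CREB family that is induced by many kinds of cell stress and often represses its targets (ENSMUSG00000026628.13, GRCm38 chr1:191170296-191218039, minus strand, 4 exons). It had 86.7, 97.8 and 88.3 CPM in stimulated libraries and 139, 266 and 187 CPM in sham libraries. The stimulated libraries lay close together and all below the sham libraries, of which replicate 2 was the highest. Mean levels were 90.9 ± 5.97 CPM after stimulation and 197 ± 64.2 CPM in sham (SD, n = 3 each). The log2 fold change was -1.12 (SE 0.29), with an edgeR adjusted p of 0.482, and -0.84 without sham replicate 2. The unadjusted p of 0.00381 was the smallest among the 8 genes.

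Atf3 was the 1 AP-1 gene that DESeq2 called, at an adjusted p of 0.0379. That call was kept when sham replicate 1 was left out (DESeq2 adjusted p = 0.00145, with 2.1% of genes called lower) and lost when any of the other 5 libraries was left out, where 0.123, 0.124 and 0.837% of genes were called lower without stimulated replicate 1, 2 and 3 and 0.149 and 0.97% without sham replicate 2 and 3. Fosb had a DESeq2 adjusted p of 0.0906 and was called only without sham replicate 2 (adjusted p = 0.00167, with 0.149% of genes called lower). Fos was not called by DESeq2 with all libraries (adjusted p = 0.356).

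The main transcript of each Jun gene is a single exon in the annotation. Jun (ENSMUSG00000052684.4, GRCm38 chr4:95049034-95052222, minus strand) encodes the main transactivating partner of Fos. It had 970, 1426 and 1038 CPM in stimulated against 1336, 1444 and 2136 CPM in sham libraries. Stimulated replicate 2 lay among the sham values, so the groups overlapped. Means were 1145 ± 246 CPM after stimulation and 1638 ± 434 CPM in sham (SD, n = 3 each), with a log2 fold change of -0.52 (SE 0.31) and an edgeR adjusted p of 0.834.

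Junb (ENSMUSG00000052837.6, GRCm38 chr8:84974484-84978718, minus strand) encodes a weaker activator that can hold Jun activity down. Its levels were 267, 364 and 381 CPM in stimulated and 441, 368 and 677 CPM in sham libraries. Sham replicate 2 lay between stimulated replicates 2 and 3, and only there did the groups cross. The log2 fold change was -0.56 (SE 0.31), with an edgeR adjusted p of 0.806. Jund (ENSMUSG00000071076.6, GRCm38 chr8:70698949-70700616, plus strand) encodes the Jun protein that is made in most resting cells. It had 308, 462 and 349 CPM in stimulated and 420, 347 and 693 CPM in sham libraries, and the groups overlapped. Its log2 fold change of -0.38 (SE 0.33, edgeR adjusted p 0.932) was -0.03 without sham replicate 3, so the difference in Jund rested on that library. For Jun and Junb the values without sham replicate 3 were -0.27 and -0.25.

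The Fos-related antigens did not share the lower levels. Fosl2 (ENSMUSG00000029135.10, GRCm38 chr5:32135801-32157842, plus strand), which encodes Fra-2, had 126, 146 and 168 CPM in stimulated and 124, 190 and 136 CPM in sham libraries. The ranges covered each other, at a log2 fold change of -0.03 (SE 0.26), which became 0.18 without sham replicate 2 and 0.12 without stimulated replicate 1. Fosl1 (ENSMUSG00000024912.5, GRCm38 chr19:5447547-5455946, plus strand), which encodes Fra-1, had 6.95, 7.05 and 15.6 CPM in stimulated and 5.78, 9.04 and 4.88 CPM in sham libraries. Only stimulated replicate 3 stood above the rest. The log2 fold change of 0.59 (SE 0.41, edgeR adjusted p 0.878) was 0.09 without that library. The annotated span of Fosl1, introns included, shares 2767 bases with Ccdc85b on the opposite strand. That span is of the later version ENSMUSG00000024912.6, and the overlap of the counted exons was not measured. Ccdc85b itself had 7.01 to 11.7 CPM in stimulated and 8.49 to 27.2 CPM in sham libraries. The library kit keeps strand, but whether the authors' counting used it is not given in the sources used here, so reads of these neighbours may not be separable.

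**Figure D1:**
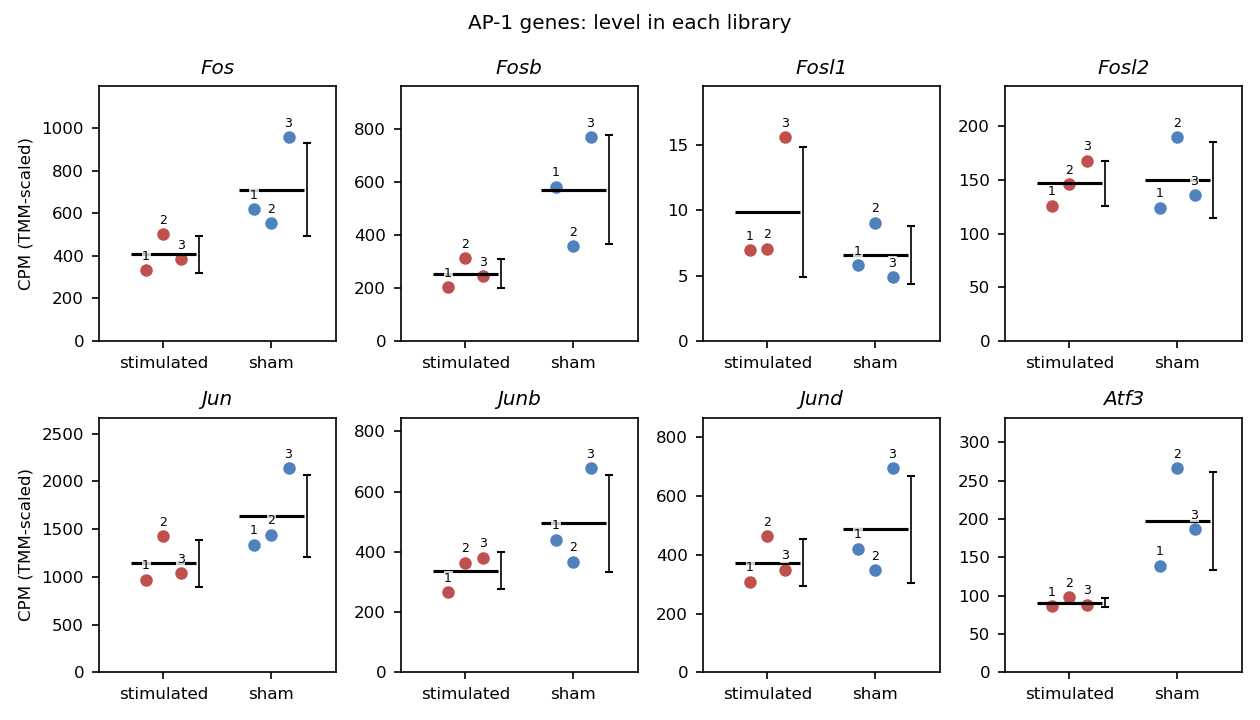
Level of each AP-1 gene in each library, in CPM after TMM scaling (linear axes from 0, a different range per gene). Points are libraries with their replicate numbers, the horizontal line is the group mean and the bar is ± 1 SD (n = 3). For Fos, Fosb and Atf3 all 3 stimulated libraries lie below all 3 sham libraries, and for the other 5 genes the groups overlap.

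The count of 3 non-overlapping genes among 8 is read against a background in which 5.89% of all genes had every stimulated library below every sham library and 6.12% had every one above. These 3 genes were also the only AP-1 genes with an unadjusted p under 0.05, all of them lower, where 4.41% of all genes were lower and 2.64% higher at that level. The median log2 fold change was -0.54 over the 8 genes and -0.02 over all genes tested, of which 52% had a negative value. The members were chosen with earlier results of these data known, so the counts describe these genes and do not set them apart from other groups of genes.

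Reads summed over each gene's transcripts gave nearly the same differences as the gene table. The log2 fold changes from summed reads were -0.81 for Fos, -1.18 for Fosb, -0.52 for Jun and 0.60 for Fosl1. Junb and Jund were somewhat lower by this measure, at -0.64 and -0.49, and Atf3 less so, at -0.95. For Fosl2 the value was 0.01. No AP-1 gene passed edgeR's test on summed reads, with adjusted p-values of 0.461 for Atf3, 0.488 for Fosb and 0.598 for Fos.

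**Figure D2:**
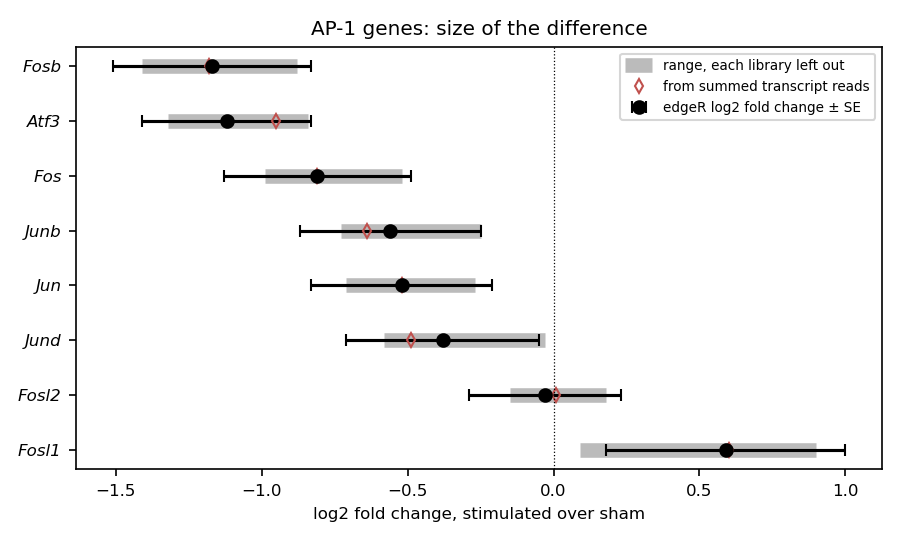
Log2 fold change of each AP-1 gene, stimulated over sham, from edgeR on all 6 libraries (black points, bars ± 1 SE). Grey bands span the values obtained when each library is left out in turn, and red diamonds give the value from reads summed over transcripts. Fosb, Atf3 and Fos lie farthest below 0 at -1.17, -1.12 and -0.81, and the bands of Jund and Fosl2 reach -0.03 and 0.18.

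The upstream sequences of Fos, Fosb, Jun and Atf3 are shown with the motifs they hold, because these are immediate early genes with a lower mean level in stimulated libraries and motifs of the factors that drive them can be read there. They come from RefSeq (GRCm38.p6), which matched 7 of the 8 genes, and each is the 250 bases before the annotated start, read on the gene's own strand. Capitals mark TGACG, the core of the cAMP response element that CREB and ATF proteins bind, TGACNTCA, the ATF-like element through which Jun acts on its own gene, the TATA box letters TATAAA, and the MEF2 motif. Both strands were searched, and TGACG read on the other strand appears as CGTCA.
Fos (chr12:85473640-85473889, plus strand): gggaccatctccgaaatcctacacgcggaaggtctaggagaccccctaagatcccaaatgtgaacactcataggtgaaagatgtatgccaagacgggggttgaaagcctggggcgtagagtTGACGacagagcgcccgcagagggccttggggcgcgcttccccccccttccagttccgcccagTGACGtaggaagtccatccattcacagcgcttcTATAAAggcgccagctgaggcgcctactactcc
Fosb (chr7:19310046-19310295, minus strand): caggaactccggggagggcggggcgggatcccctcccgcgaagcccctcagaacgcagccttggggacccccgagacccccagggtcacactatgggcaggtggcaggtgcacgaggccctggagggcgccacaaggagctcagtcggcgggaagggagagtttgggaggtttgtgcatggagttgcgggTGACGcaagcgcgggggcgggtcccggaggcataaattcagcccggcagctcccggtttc
Jun (chr4:95052223-95052472, minus strand): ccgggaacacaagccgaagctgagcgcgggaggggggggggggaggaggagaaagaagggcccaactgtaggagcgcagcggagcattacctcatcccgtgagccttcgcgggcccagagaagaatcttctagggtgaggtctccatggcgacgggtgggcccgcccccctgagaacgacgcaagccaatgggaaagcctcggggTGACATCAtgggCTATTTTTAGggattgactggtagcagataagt
Atf3 (chr1:191183334-191183583, minus strand): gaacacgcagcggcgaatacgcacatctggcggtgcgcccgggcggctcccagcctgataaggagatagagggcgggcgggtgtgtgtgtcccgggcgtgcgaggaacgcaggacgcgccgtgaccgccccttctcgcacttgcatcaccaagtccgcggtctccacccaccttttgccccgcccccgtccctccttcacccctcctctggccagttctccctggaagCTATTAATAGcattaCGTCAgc

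With the base before the start counted as -1, Fos held TGACG at -129 and -66 and TATAAA at -33. Fosb held TGACG at -60, and Junb, which is not printed, held it at -106. Jun held TGACATCA at -45 and a MEF2 motif at -33. Atf3 held the reverse form CGTCA at -7 and a MEF2 motif at -22. Marked matches do not overlap each other in these windows. No CArG box, the element of serum response factor, was matched in any of the 7 windows, which says nothing of elements farther away. Over 32851 RefSeq windows of the same length, 17.8% held TGACG, 7.49% TGACNTCA, 12.4% TATAAA, 0.508% the MEF2 motif and 1.47% a CArG box. The 4 windows had 58.4, 68.8, 61.2 and 65.2% G and C in the order printed, against a median of 52.4% over all windows. The RefSeq starts of Fosl2 and Jund lie 299 and 1210 bases from the nearest GENCODE start, so their windows are not described further.

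AU-rich 3' ends are a known feature of short-lived Fos and Jun messengers, and the pentamer ATTTA, in DNA letters, is their simplest mark. Fos had 4 such pentamers in 815 bases of 3' untranslated sequence, or 4.91 per kb, a density reached by 7.04% of 15701 tested genes. Jun had 4 in 1233 bases (3.24 per kb, reached by 18.5%), Junb 2 in 485 bases (4.12 per kb, reached by 11%) and Atf3 3 in 1186 bases (2.53 per kb, reached by 27.9%). The median over genes was 1.37 per kb. Fosb, whose difference was the largest, had 1 in 2145 bases (0.466 per kb). Fosl2 had 8 in 4653 bases (1.72 per kb). A 30-base stretch of the Fos and Jun sites is shown because overlapping or neighbouring pentamers sit there, with the pentamers in capitals.
Fos: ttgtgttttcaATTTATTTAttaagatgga
Jun: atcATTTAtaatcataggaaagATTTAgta

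Levels of different genes were compared per length, as TPM rescaled to the sum over protein-coding transcripts. This scale was chosen after the data were seen, because transcripts with an effective length under 200 bases took 95.4 to 97.4% of the deposited TPM on 11.4 to 18.8% of the reads. Jun was the highest of the 8 in every library, at 788, 1225 and 714 TPM in stimulated and 1103, 1198 and 1553 TPM in sham libraries, and ranked 164 of 17143 tested protein-coding genes by its mean of 1097 TPM. Fos followed with 404, 648 and 399 TPM in stimulated and 770, 689 and 1048 TPM in sham libraries (rank 299). Junb averaged 439 ± 79.8 TPM in stimulated and 645 ± 159 TPM in sham libraries (SD, n = 3 each, rank 381). Atf3 had 305 ± 49.6 TPM in stimulated and 666 ± 238 TPM in sham libraries (rank 432), and Jund 369 ± 110 TPM in stimulated and 473 ± 139 TPM in sham libraries (rank 506). With all transcripts of each gene counted, Fos and Junb were each above Jund in all 6 libraries. For Fos this did not hold over protein-coding transcripts alone, as given below. Junb was above Fos in stimulated replicate 3 only, and Atf3 was above Fos in sham replicate 2 and above Jund in sham replicates 1 and 2, so the place of Atf3 varied between libraries. Fosb came next in every library, at 143 ± 41.3 TPM in stimulated and 318 ± 96 TPM in sham libraries (rank 1092). Fosl2 followed at 67.1 ± 6.85 TPM in stimulated and 70.2 ± 19.2 TPM in sham libraries (rank 4096), and Fosl1 was lowest in every library, at 10.5 ± 3.98 TPM in stimulated and 7.41 ± 2.84 TPM in sham libraries (rank 10838).

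The place of Atf3 depended on a 517-base transcript annotated as non-coding that lies wholly within exons of the main transcript. It took 70.2, 72.7 and 76% of the gene's TPM in stimulated and 71, 78.8 and 78.1% in sham libraries, on 23 to 31.1% of its reads. Counted over protein-coding transcripts alone, Atf3 had 82.9 ± 18.6 TPM in stimulated and 155 ± 38.3 TPM in sham libraries (SD, n = 3 each) and came after Fosb in the order of means. On that measure Fos had 235, 224 and 226 TPM in stimulated and 487, 344 and 469 TPM in sham libraries, with a narrow stimulated range and no overlap. The place of Fos changed too. Its mean over all libraries was 331 TPM, below Junb at 526 TPM and Jund at 421 TPM. Only in sham replicate 1 was Fos above Jund, which had 432 TPM there. Jun stayed the highest by mean (rank 92), and Fos had rank 316.

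On the TPM scale as deposited, 6 of the 8 genes had all stimulated libraries below all sham libraries, where 9.73% of all genes did. On the rescaled TPM the count was 3, as with CPM, at a background of 6.69%. Fos, for example, had 6.53, 8.19 and 7.14 deposited TPM in stimulated and 16.4, 16.8 and 14.7 deposited TPM in sham libraries. The part of short RNAs in the deposited scale differed between libraries, and its part in these 3 added genes was not tested.

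Fos genes made a smaller part of the Fos and Jun pool in stimulated than in sham libraries. The 4 Fos genes made 28.8, 29.1 and 29.3% of the summed TPM of the 7 Fos and Jun genes in stimulated libraries, against 35.5, 32.7 and 33.5% in sham libraries. All stimulated libraries lay below all sham libraries in this pool, which leaves out Atf3. With Atf3 added to the pool, the part of the Fos genes was not below that of sham replicate 2 in every stimulated library. In the pool of 7 genes the mean share was 29.1 ± 0.288% after stimulation and 33.9 ± 1.46% in sham (SD, n = 3 each). The difference was -4.82 percentage points with p = 0.1 in a two-sided exact permutation test, the smallest p that 20 splits of 3 against 3 allow. All transcripts of each gene were summed here, non-coding ones included, and the spread over protein-coding transcripts alone was not measured. Such a share does not depend on how libraries are scaled to each other. It was -2.96 points without Fosb (exact permutation p = 0.1) and -5.73 without Fosl1 and Fosl2 (exact permutation p = 0.1). In estimated reads, which weigh long transcripts more, the shares were 32.4, 27.8 and 33.1% in stimulated and 40.2, 33.4 and 32.4% in sham libraries and overlapped (-4.26 points, exact permutation p = 0.2).

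Within the pool of all 8 genes, Jun took a larger share in every stimulated library, at 33.5, 34.8 and 30.9%, than in any sham library, at 29, 29.9 and 30.5%. Jund likewise took 13.3, 14.1 and 13% in stimulated against 11.4, 8.97 and 12.4% in sham libraries. Both genes were picked after the shares were seen, and the shares of the other genes in the pool overlapped between groups. Both genes had lower mean levels after stimulation, so their larger shares came with a smaller pool. Shares in a pool rise as others fall, so those of Jun and Jund are no separate result. Summed over the 8 genes, the pool was 2349, 3518 and 2309 rescaled TPM in stimulated and 3806, 4006 and 5090 in sham libraries. Atf3 had its largest share, 23.4%, in sham replicate 2, where the endothelial, mural, macrophage and fibro-adipogenic markers were all highest.

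**Figure D3:**
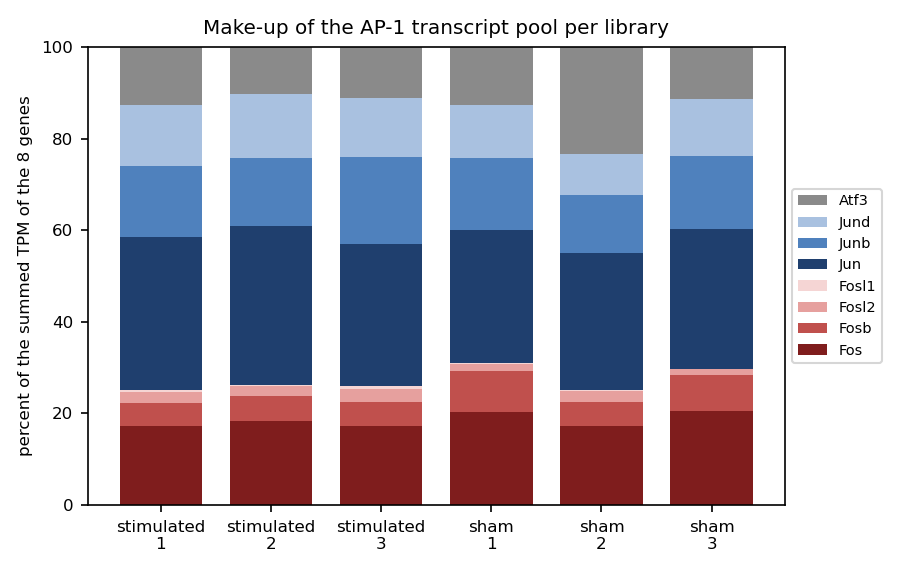
Share of each AP-1 gene in the summed TPM of the 8 genes, in percent, for each library (stimulated on the left, sham on the right). Jun is the largest share in every library. The red Fos-gene blocks together are smaller in stimulated libraries 1 to 3 than in sham replicates 1 and 3. They are not all smaller than in sham replicate 2, where Atf3 reaches 23.4%.

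The transcript tables list 4 transcripts of Fos and 7 of Fosb. The coding transcript of Fos (2108 bases) took 58.3, 34.5 and 56.8% of the gene's TPM in stimulated and 63.2, 50 and 44.7% in sham libraries, with overlapping groups. The main coding transcript of Fosb (3782 bases) took 36.7, 33.2 and 47.2% in stimulated and 57.7, 48.2 and 36.6% in sham libraries. Its mean share was 39 ± 7.26% after stimulation and 47.5 ± 10.6% in sham (SD, n = 3 each), and the difference of -8.45 points had p = 0.3 in a two-sided exact permutation test. The shares of both main transcripts thus overlapped between groups. That of Fos was not tested, and 3 libraries per group cannot show that a difference is absent.

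Of the transcripts of Fos and Fosb that carry intron sequence, 1 of each gene had a larger share of TPM in every stimulated library than in any sham library. For Fosb this was a transcript of 3629 bases annotated as a retained intron, of which 2461 bases lie in introns of the main transcript and which contains 2 of its 3 introns whole. It took 38.7, 36.9 and 35.9% of Fosb TPM in stimulated against 23.8, 26.3 and 32.6% in sham libraries. Its share of Fosb reads overlapped between groups, at 42.5, 44.3 and 38.4% in stimulated and 25.7, 30.9 and 38.9% in sham libraries. For Fos it was a non-coding transcript of 795 bases with 244 intron bases, at 11, 10.8 and 11.4% in stimulated against 6.95, 7.51 and 7.4% in sham libraries. Its share of Fos reads was 7.31, 8.67 and 7.38% in stimulated and 4.47, 5.41 and 5.28% in sham libraries. The more abundant non-coding Fos transcript of 834 bases, with 105 intron bases, did not share this, at 30.7, 54.7 and 31.8% in stimulated and 29.8, 42.5 and 47.9% in sham libraries. The 795-base and 3629-base transcripts were picked after their values were seen and carry no test, and 5.04% of 42877 transcripts with a share of 5 to 95% and at least 10 reads on average had shares that were higher in every stimulated library. These are shares of a smaller total: in reads the Fosb transcript had 1664, 2735 and 2142 in stimulated and 3652, 1973 and 5457 in sham libraries, which overlap. Transcripts of 1 gene share exons, so their shares are estimates and not counts of distinct molecules.

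**Figure D4:**
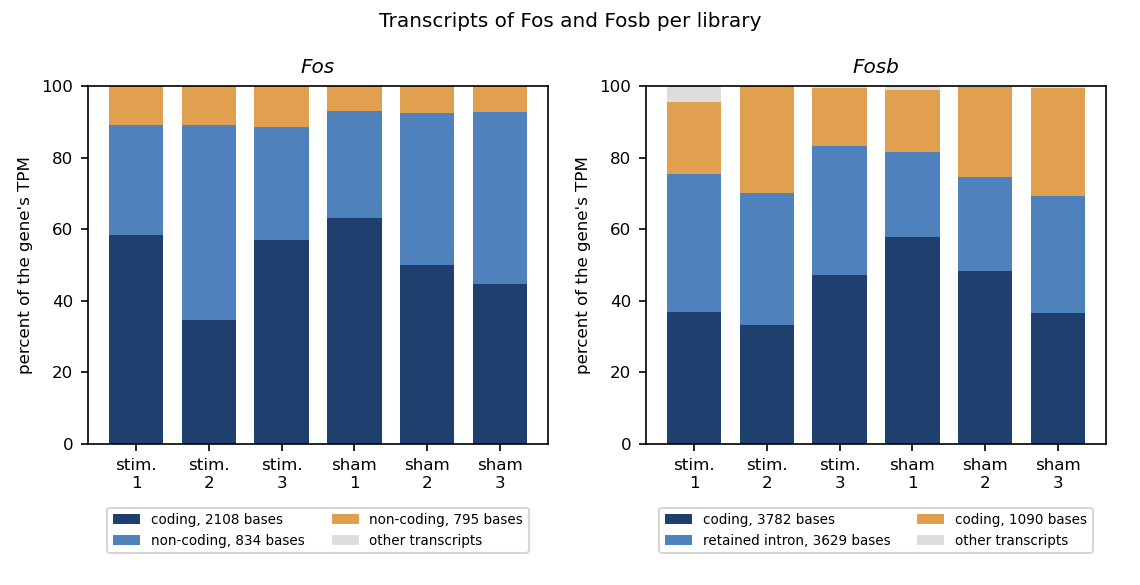
Share of each transcript in the TPM of Fos (left) and Fosb (right), in percent, for each library. Dark blue is the main coding transcript. The Fosb retained-intron transcript (mid blue, right) takes 35.9 to 38.7% in stimulated and 23.8 to 32.6% in sham libraries, and the Fos transcript of 795 bases (orange, left) takes 10.8 to 11.4% in stimulated and 6.95 to 7.51% in sham libraries.

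Across the 6 libraries the AP-1 genes did not all follow 1 pattern. Measured as the root mean square difference from the mean profile of the 8 genes, on log2 CPM centred over the libraries, Jun (0.149), Junb (0.174), Fos (0.23) and Jund (0.235) were closest to it. Fosl2 (0.334), Atf3 (0.413), Fosb (0.428) and Fosl1 (0.7) were farther away. Fos, Fosb, Jun, Junb and Jund were all highest in sham replicate 3 and lowest in stimulated replicate 1. Atf3 and Fosl2 were highest in sham replicate 2 instead. That library had the least lymphocyte marker RNA. It had the most endothelial, pericyte, smooth muscle, macrophage and fibro-adipogenic marker RNA, so no 1 of these lists is singled out. The centred log2 CPM of Atf3 was 1.02 there, against 0.51 in sham replicate 3 and 0.08 in sham replicate 1.

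The 5 genes outside the group whose centred profile was nearest to the mean of the 8 were Selenok (0.0503), Dusp1 (0.0655), Hectd3 (0.0666), Hist1h4c (0.0666) and Optn (0.0809), over 6 libraries. Dusp1 encodes a phosphatase that switches off MAP kinases and is itself an immediate early gene. It had 298, 371 and 390 CPM in stimulated and 407, 460 and 524 CPM in sham libraries, with no overlap and a log2 fold change of -0.39 (SE 0.26, edgeR adjusted p 0.858). The mean profile was itself lower in every stimulated than in every sham library. The lack of overlap for Dusp1 thus goes with how it was picked and is no separate result. The likeness is a description of these 6 libraries.

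**Figure D5:**
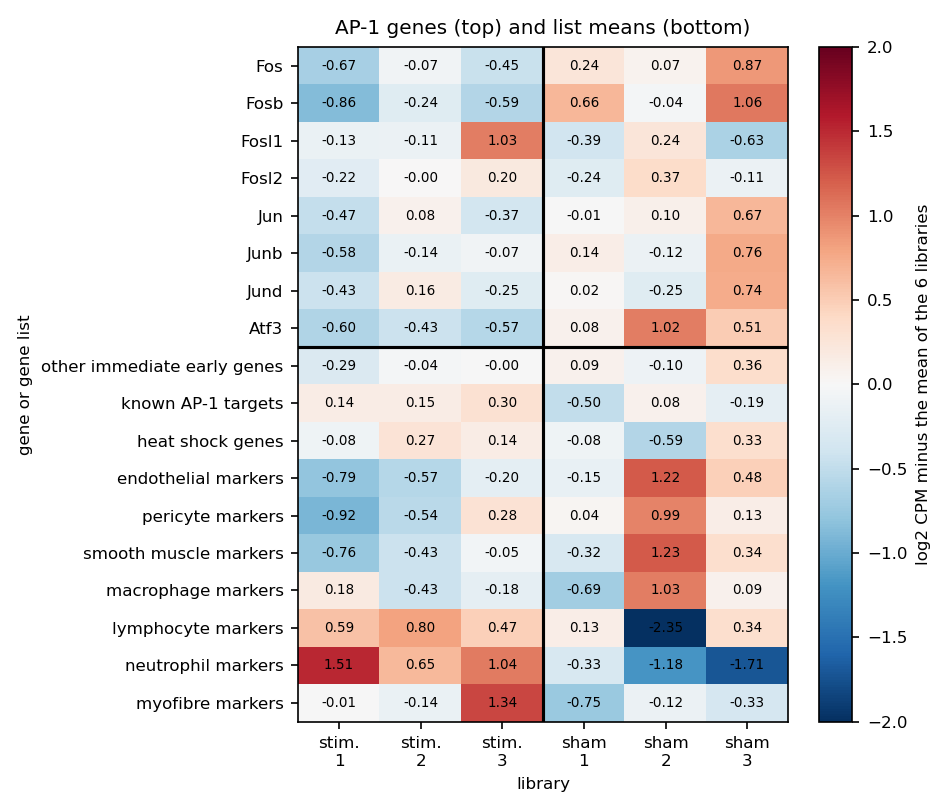
Log2 CPM of each AP-1 gene, and mean log2 CPM of other gene lists, minus the mean over the 6 libraries (colour and printed value). Stimulated libraries are the 3 left columns and sham libraries the 3 right ones. Fos, Fosb, Jun, Junb and Jund are highest in sham replicate 3, whereas Atf3, Fosl2 and the endothelial, pericyte, smooth muscle and macrophage lists are highest in sham replicate 2.

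Cell type markers also differed between the groups by fold change. Only the endothelial, neutrophil and myofibre lists had summed levels without overlap, and the sums of the other cell type lists overlapped. All 18 endothelial markers were lower in stimulated libraries by fold change, with a median log2 fold change of -1.08 (-0.63 without sham replicate 2) and summed levels of 2982, 3331 and 4568 CPM in stimulated against 4729, 11969 and 7042 CPM in sham libraries. All 12 neutrophil markers were higher, with a median of 1.93 and sums of 297, 189 and 237 CPM in stimulated against 102, 81.2 and 89.1 CPM in sham libraries. The 15 lymphocyte markers were all higher (median 0.77, or 0.35 without sham replicate 2), with sums that overlapped, at 2003 to 2715 CPM in stimulated and 315 to 2855 CPM in sham libraries. Of 12 pericyte markers 11 were lower (median -0.86, or -0.50 without sham replicate 2), at 186 to 431 CPM in stimulated and 343 to 712 CPM in sham libraries. The 8 smooth muscle markers were all lower (median -1.04, or -0.39 without sham replicate 2), while 11 of 12 macrophage markers (median -0.43, or 0.12 without sham replicate 2) and 9 of 10 fibro-adipogenic markers (median -0.51, or -1.20 without stimulated replicate 3) were lower. All 10 myofibre markers were higher (median 0.99, or 0.36 without stimulated replicate 3). Of the satellite cell list, 6 of 8 markers were tested and 6 were higher (median 0.22, or -0.86 without stimulated replicate 3 and -0.01 without sham replicate 3). No marker in these lists passed edgeR's test at the adjusted threshold. In such mixed material, fewer cells that express an AP-1 gene and less RNA per cell cannot be told apart, and the part of cell make-up in the AP-1 differences was not tested.

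Heat shock genes are also switched on when tissue is dissociated. Of 11 such genes 8 were higher and 3 lower in stimulated libraries, with a median log2 fold change of 0.28, which turned to -0.04 without sham replicate 2, and 0 called by edgeR. Their summed levels were 15917, 21175 and 18293 CPM in stimulated and 15526, 12539 and 22983 CPM in sham libraries. Sham replicate 3 had the highest sum of this list as well as the highest Fos, Fosb, Jun, Junb and Jund. Stimulated replicate 2 had the next highest sum, with Fos and Fosb below every sham library. The values without sham replicate 3 show the weight of that library only. The part of dissociation in the AP-1 levels was not tested.

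The kinases and factors upstream of AP-1 were split between directions. Of 15 genes of the ERK, JNK and p38 kinase modules, 7 were higher and 8 lower, and their median log2 fold change was -0.08 (0.17 without sham replicate 3 and 0.02 without stimulated replicate 1). Mapk3, which encodes the kinase ERK1, had 32.9, 29.5 and 35.7 CPM in stimulated against 49.4, 94 and 63.7 CPM in sham libraries (log2 fold change -1.08, SE 0.28, edgeR adjusted p 0.499). Rps6ka1, which encodes the ERK-driven kinase RSK1, had 41.9, 56.9 and 53.2 CPM in stimulated against 24.4, 40.3 and 31.4 CPM in sham libraries (log2 fold change 0.66, SE 0.26, edgeR adjusted p 0.668). Neither gene overlapped between groups, and they differed in opposite directions. Of all genes, 5.89% were lower and 6.12% higher without overlap. Both genes were named for a small unadjusted p in their list, so the lack of overlap goes with how they were picked. Among 14 genes for SRF, its partners, CREB factors and MEF2 factors, 6 were higher and 8 lower (median -0.11, or -0.16 to -0.01 with each library left out), and Elk3, a partner of SRF, had 62.9, 79.4 and 95.2 CPM in stimulated against 104, 237 and 143 CPM in sham libraries. The 9 dual-specificity phosphatases, which shut MAP kinases off, were higher in 3 and lower in 6 cases (median -0.38, or -0.06 without stimulated replicate 1 and -0.07 without sham replicate 1). None of these genes passed the adjusted threshold.

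Of 18 other immediate early genes 13 were lower and 5 higher, the median log2 fold change was -0.23 (-0.37 to -0.08 with each library left out) and edgeR called 0. Egr1, a zinc finger factor induced together with Fos, had 238, 282 and 277 CPM in stimulated against 421, 503 and 431 CPM in sham libraries (log2 fold change -0.77, SE 0.25, edgeR adjusted p 0.589). Klf4 had 112, 147 and 163 CPM in stimulated against 231, 289 and 276 CPM in sham libraries, and Cyr61, a matricellular protein gene of the Hippo pathway, 75.5, 82 and 102 CPM in stimulated against 136, 264 and 141 CPM in sham libraries. For all 3 the groups did not overlap, where 5.89% of all genes were lower in this way. They were named for the smallest unadjusted p of their list, so the lack of overlap goes with how they were picked. Egr1, Klf4 and Cyr61 were all highest in sham replicate 2, and Cyr61 by the widest margin.

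Of 14 other leucine zipper factors that pair with AP-1 proteins or bind like elements, 10 were lower and 4 higher, and the median log2 fold change was -0.04 (-0.09 to 0.02 with each library left out), with 0 called by edgeR. Batf, a partner of Jun proteins in lymphoid and myeloid cells, had 7.48, 8.57 and 7.2 CPM in stimulated against 2.27, 1.68 and 6.2 CPM in sham libraries (log2 fold change 1.20, SE 0.48, edgeR adjusted p 0.668). It was lowest in sham replicate 2, where lymphocyte markers were also lowest. Batf2 had 0.579, 0.591 and 1.15 CPM in stimulated against 1.6, 2.65 and 1.63 CPM in sham libraries, a low level in both groups. The 12 genes of AP-1 turnover and decay of AU-rich messengers were higher in 7 and lower in 5 cases (median 0.06, or -0.01 without sham replicate 1 or 2).

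Of 20 genes known as AP-1 targets, 19 were tested, and 13 were higher and 6 lower; their median log2 fold change was 0.29, and 0.03 without sham replicate 1. Hmox1, which encodes an inducible haem oxygenase, had 164, 128 and 119 CPM in stimulated against 24.2, 62 and 32 CPM in sham libraries (log2 fold change 1.80, SE 0.37, edgeR adjusted p 0.424). Ccl2, a monocyte-attracting chemokine, had 23.9, 17.5 and 24.2 CPM in stimulated against 7.73, 10.9 and 8.51 CPM in sham libraries, and Il1b, an inflammatory cytokine made by myeloid cells, 64.6, 52 and 62.8 CPM in stimulated against 12.7, 19.9 and 30.1 CPM in sham libraries. The groups stayed apart for all 3, where 6.12% of all genes were higher in this way. These 3 too were named for the smallest unadjusted p of their list, so their lack of overlap is no separate result. At an unadjusted p under 0.05, 6 genes of the list were higher and 1 lower, where the background was 2.64% higher and 4.41% lower. Summed over the list, levels were 693, 648 and 701 CPM in stimulated and 407, 551 and 567 CPM in sham libraries. The neutrophil markers were higher in the same libraries, and their part in these target levels was not tested.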

How the data were processed

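Estimated counts per gene (53715 genes) were deposited by the authors, as were transcript tables for 135181 transcripts whose columns, per the file headers, hold TPM, estimated reads, length and effective length. Per the submitters' processing notes, GRCm38 was the build and Salmon 0.8.2, Trimmomatic 0.36, bcl2fastq 2.17.1.14, edgeR and R 3.5.1 were the tools, with no settings given. Each deposited gene count equals TPM multiplied by constants of its gene and its library (ratio constant within 1% for 100% of 14096 genes with TPM above 0.1 throughout), so they are scaled by length and are not sums of reads. Estimated counts were rounded, filtered with filterByExpr (minimum count 10, minimum total 15), scaled by TMM and tested with edgeR's robust quasi-likelihood test (edgeR 4.0.16, R 4.3.3) with Benjamini-Hochberg adjustment at 0.05. No other term was in the fit. SE is the log2 fold change divided by the square root of F. Shares were tested by exact permutation. Alternatives used DESeq2 1.42.0, limma voom 3.58.1 and the settings given in the closing section, and DESeq2 gave no adjusted p for 6724 genes. The testing scripts were also tested on simulated data, from which no value here comes. Coordinates and exons come from GENCODE for GRCm38 and upstream sequences from RefSeq. Replicates were not duplicates (chi-square per gene 24.6 to 112). The precision is set by 3 libraries per group, with a common biological coefficient of variation of 0.398.

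The 8 genes and all gene lists were chosen with earlier results of these data known. Genes named are the 8, up to 3 per list by smallest unadjusted p (not all are described), the 5 nearest by profile (mean log2 CPM 1 or more, no clone symbols), and the sort genes. Ccdc85b, the pool shares of Jun and Jund, and the single Fos, Fosb and Atf3 transcripts other than the main ones were picked after their values were seen.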

Additional observations from a re-analysis of the deposited data

How the results depend on the processing

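The precision is limited by 3 libraries per group, and the SE of the AP-1 log2 fold changes was 0.26 to 0.41. Fos, Fosb, Jun, Junb and Atf3 were lower, and Fosl1 higher, in 22 of 22 alternatives each, and Jund was lower in 21, with a value of 0.01 by DESeq2 without sham replicate 3. Of the 22, the setting with an adjusted p of 0.1 repeats the main fold changes. The others refit the same libraries, so these counts are not independent support. Fosl2 was lower in 15 and higher in 7, with a range of -0.15 to 0.18 over libraries left out: 0.03 with no filter, 0.0061 from reads summed over transcripts, 0.02 with protein-coding genes only, 0.12 and 0.11 (edgeR, DESeq2) without stimulated replicate 1, and 0.18 and 0.16 without sham replicate 2. Genes called higher, 0 in edgeR, were 74 by DESeq2, 3 with RLE size factors, 44 with no filter, 1 from summed reads, 2 with protein-coding genes only, 3 at an adjusted p of 0.1, 0 to 1 with each library left out and, by DESeq2 without stimulated replicate 1, 2 and 3 and sham replicate 1, 2 and 3, 32, 32, 55, 165, 62 and 294. Genes called lower, 0 in edgeR, were 153 by DESeq2, 65 with no filter and, by DESeq2 with the same libraries left out, 34, 32, 179, 406, 40 and 187. AP-1 genes called lower were 1 by DESeq2 and 0 to 1 with each library left out, and 11 genes of the other lists were called by DESeq2. On deposited TPM the log2 ratios of group means were -1.13 for Fos, -1.49 for Fosb, -0.86 for Jun, -0.87 for Junb, -0.69 for Jund and -1.56 for Atf3, and 6 AP-1 genes did not overlap. In CPM they were -0.81, -1.17, -0.52, -0.56 and -0.38 for the Fos, Fosb, Jun, Junb and Jund genes, and on rescaled TPM -0.79, -1.16, -0.50, -0.55 and -0.36. Over protein-coding transcripts alone they were -0.92 for Fos, -0.50 for Jun, -0.56 for Junb, -0.36 for Jund and -0.91 for Atf3. With each library left out, the difference in the Fos share of AP-1 TPM ranged from -5.42 to -4.01 points, that of the main Fosb transcript from -13.9 to -3.35 points and the number of AP-1 genes lower by fold change from 6 to 7. The causes of these shifts were not tested. A fit with the replicate number as a block called 0 genes and gave -0.79 for Fos, -1.13 for Fosb and -1.07 for Atf3. Deviations of same-numbered libraries correlated at 0.317, -0.161 and 0.128, so not every pair was positive; the labels give no pairing, and the block was not used. Not every library correlated best with its own number. DESeq2 with a library left out, protein-coding genes only and rescaled TPM were chosen after the data were examined.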
